A study of Mus musculus with 15 samples.

Results

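The Fox genes encode the forkhead transcription factors, and 45 of the 21770 protein-coding genes of the GRCm39 annotation (GENCODE M39) bear a symbol made of Fox, 1 lower-case letter from a to s and a number. They lie on 16 chromosomes, 6 of them on chromosome 4. Trimethylation of histone H3 at lysine 4 (H3K4me3), found at promoters that are active or held ready, was profiled with ChIP–seq in mBA cells, which the sample labels call primary cells of mouse brown fat and the study's methods describe as brown preadipocytes of newborn mice immortalized with SV40 large T antigen and differentiated in culture. The 3 conditions were untreated wild-type cells (WT), wild-type cells given 500 µM octyl d-2-hydroxyglutarate, a cell-permeable form of the metabolite d-2HG, for 72 h from day 3 of differentiation (WT + 2HG), and untreated cells of mice that lack the mitochondrial protease CLPP in the whole body (CLPP-KO, from Clpp fl/fl mice with β-actin-Cre). The labels give DMSO as the solvent of 2HG and no treatment for WT and CLPP-KO. CLPP-KO cultures also received uridine, so the knockout and this supplement cannot be told apart. Each condition had 4 ChIP samples and 1 input sample.

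The peaks of the 4 samples of a condition were called together, which leaves 1 peak list per condition and no spread between replicates. Every value below is therefore a description of 3 lists without a test, and absence from a list means that no peak was called there, not that the mark was absent. The lists held 12342 peaks in WT, 14059 with 2HG and 15118 in CLPP-KO. Read depth is not given in the lists, and its part in these numbers was not tested. A gene was counted as marked when a peak overlapped the 2000 bp either side of any of its transcript starts, and as gained in a list when it was marked there and not in WT. The strength of a peak is given as its percentile, by area under the curve, among all peaks of its own list, because areas are not scaled between lists. A percentile also depends on the length of its list. Of the 11021 coding genes marked in all 3 lists, 64.3% had a higher percentile with 2HG than in WT, and 69.9% in CLPP-KO. For the 28 such Fox genes both shares were 67.9%.

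Forkhead factors share a winged-helix DNA-binding domain and are grouped by letter into subfamilies. Several FOXA proteins open compact chromatin in the endoderm, FOXC, FOXF and FOXL proteins pattern mesoderm and mesenchyme, and FOXO proteins are kept out of the nucleus by insulin signalling through AKT. In fat cells Foxo1 restrains adipocyte differentiation, and Foxc2 has been tied to brown-like features of adipose tissue. Promoters of developmental regulators are commonly rich in CpG dinucleotides, and such promoters tend to carry H3K4me3.

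Marked and unmarked Fox genes differed in CpG content at their starts, as did marked and unmarked coding genes in general, described further on. Example windows of 200 bases are printed here, at peak summits or upstream of starts, and they do not measure that difference. All are GRCm39, 5′ to 3′ on the strand of the gene, with every CpG in capitals, and none overlaps an annotated untranslated region. The first windows are centred on the summit of the strongest CLPP-KO promoter peak of genes without a WT peak. They are, in order, Foxa1 (chr12:57592268-57592467, minus strand, intron, 22 CpGs), Foxd3 (chr4:99545813-99546012, plus strand, coding exon, 32 CpGs), Foxd4 (chr19:24877315-24877514, minus strand, coding exon, 20 CpGs), Foxi3 (chr6:70933372-70933571, plus strand, across the start, 19 CpGs) and Foxl1 (chr8:121855305-121855504, plus strand, coding exon, 15 CpGs).
Foxa1: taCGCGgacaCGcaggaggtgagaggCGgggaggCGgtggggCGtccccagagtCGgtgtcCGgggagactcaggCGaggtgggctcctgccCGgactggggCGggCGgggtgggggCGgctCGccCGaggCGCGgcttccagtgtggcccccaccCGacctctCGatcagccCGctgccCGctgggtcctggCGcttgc
Foxd3: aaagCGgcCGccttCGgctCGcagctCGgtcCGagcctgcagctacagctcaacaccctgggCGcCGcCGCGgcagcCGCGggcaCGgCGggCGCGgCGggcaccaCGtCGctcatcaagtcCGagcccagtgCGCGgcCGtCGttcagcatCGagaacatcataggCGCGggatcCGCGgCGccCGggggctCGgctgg
Foxd4: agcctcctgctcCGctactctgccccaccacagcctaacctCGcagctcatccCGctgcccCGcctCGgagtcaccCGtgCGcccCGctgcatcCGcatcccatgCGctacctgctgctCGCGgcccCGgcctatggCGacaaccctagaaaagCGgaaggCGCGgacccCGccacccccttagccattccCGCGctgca
Foxi3: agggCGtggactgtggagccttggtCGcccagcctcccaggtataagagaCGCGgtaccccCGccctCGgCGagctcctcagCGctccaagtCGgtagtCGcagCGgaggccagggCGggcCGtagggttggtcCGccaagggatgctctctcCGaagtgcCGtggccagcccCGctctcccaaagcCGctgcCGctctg
Foxl1: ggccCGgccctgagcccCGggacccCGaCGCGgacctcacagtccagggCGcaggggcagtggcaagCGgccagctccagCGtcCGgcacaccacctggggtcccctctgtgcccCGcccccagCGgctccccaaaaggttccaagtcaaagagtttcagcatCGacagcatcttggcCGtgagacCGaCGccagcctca

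The summits of 2 genes that ranked near the top of all 3 lists are shown for comparison. They lie in coding exons of Foxc1 (chr13:31991849-31992048, plus strand, 23 CpGs) and Foxo3 (chr10:42151219-42151418, minus strand, 22 CpGs).
Foxc1: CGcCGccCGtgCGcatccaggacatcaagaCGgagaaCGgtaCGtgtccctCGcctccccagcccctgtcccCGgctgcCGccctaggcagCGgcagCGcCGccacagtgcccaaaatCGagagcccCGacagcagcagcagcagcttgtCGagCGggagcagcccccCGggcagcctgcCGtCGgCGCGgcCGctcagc
Foxo3: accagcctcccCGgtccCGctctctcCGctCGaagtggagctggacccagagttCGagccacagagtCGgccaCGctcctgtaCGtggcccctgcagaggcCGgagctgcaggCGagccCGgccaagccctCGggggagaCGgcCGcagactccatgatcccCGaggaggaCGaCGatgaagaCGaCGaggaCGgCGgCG

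The 200 bases just upstream of the canonical start are shown for 3 genes without a promoter peak in any list, Foxn1 (chr11:78277385-78277584, minus strand, 4 CpGs), Foxo6 (chr4:120147793-120147992, minus strand, 4 CpGs) and Foxr2 (chrX:151909693-151909892, plus strand, 0 CpGs). They are windows of another kind than the summit windows, so their CpG numbers are shown side by side and not compared.
Foxn1: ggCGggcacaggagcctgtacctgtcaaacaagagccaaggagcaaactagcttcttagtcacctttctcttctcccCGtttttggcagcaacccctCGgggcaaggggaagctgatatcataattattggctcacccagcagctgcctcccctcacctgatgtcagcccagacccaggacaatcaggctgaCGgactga
Foxo6: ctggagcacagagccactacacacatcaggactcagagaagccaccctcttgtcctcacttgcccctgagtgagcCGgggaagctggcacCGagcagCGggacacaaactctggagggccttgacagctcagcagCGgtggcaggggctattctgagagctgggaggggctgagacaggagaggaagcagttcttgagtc
Foxr2: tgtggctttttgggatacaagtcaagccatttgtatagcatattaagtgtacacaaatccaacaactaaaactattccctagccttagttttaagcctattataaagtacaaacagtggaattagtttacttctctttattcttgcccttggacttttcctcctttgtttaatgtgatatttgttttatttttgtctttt

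More Fox genes were marked in the treated and knockout lists than in WT, and none was lost. H3K4me3 marked 28 of the 45 in WT (62.2%), 34 in WT + 2HG (75.6%), and 38 in the CLPP-KO list (84.4%). Of all protein-coding genes 51.3% were marked in WT, 56.4% with 2HG and 58.2% in CLPP-KO. The 28 genes of the WT list were in all 3 lists. Of all protein-coding genes marked in WT, 1.24% were missing from one or both of the other lists, so the absence of losses among 28 genes is near that background. The number of promoter peaks at Fox genes was 33 in WT, 43 with 2HG and 52 in CLPP-KO, in lists that also grew for all genes. At least 2 of them stood at 5 of 28 marked Fox genes in WT (17.9%), 9 of 34 with 2HG (26.5%) and 12 of 38 in CLPP-KO (31.6%), against 17.4, 16.3 and 16.9% of all marked coding genes.

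Of the 17 Fox genes without a WT promoter peak, 6 had one in WT + 2HG (35.3%), and 10 in the CLPP-KO list (58.8%), where the shares for all 10611 such coding genes were 11.6% and 14.9%. The 6 genes of the WT + 2HG list were all in the CLPP-KO list too (35.3%, against 9.74% of all such genes), and 4 were in CLPP-KO alone (23.5%, against 5.15%). None was in WT + 2HG alone, where the background was 1.83%. Both lists are set against the same WT list, and the CLPP-KO list is the longest. With each list cut to the 12342 peaks of largest area, 4 of the 17 were in both lists (23.5%, against 5.42%) and 6 in CLPP-KO (35.3%, against 8.39%).

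**Figure D1:**
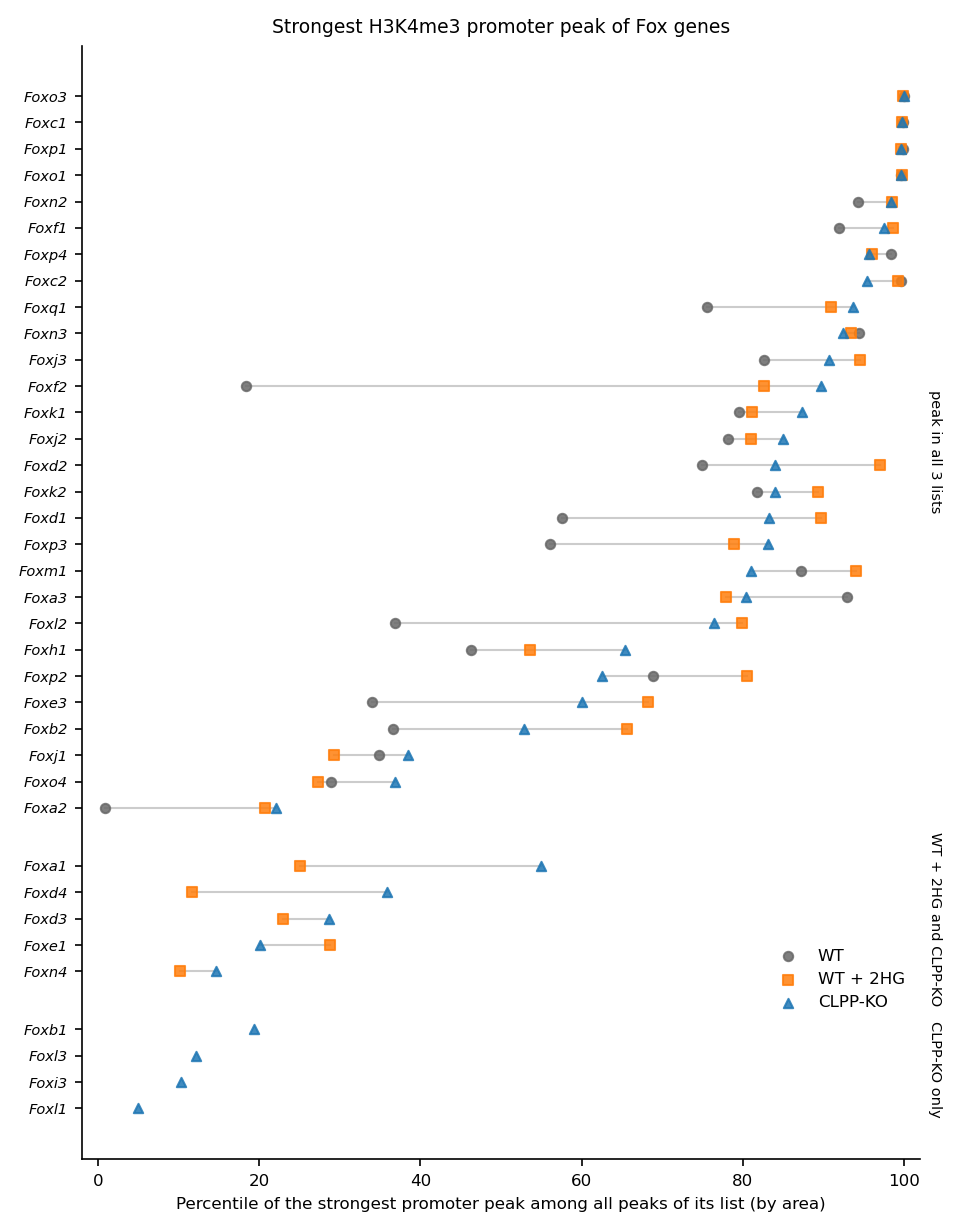
Percentile of the strongest promoter peak, by area, among all peaks of its list (x axis) for 37 Fox genes with a promoter peak in at least 1 list, with circles for WT, squares for WT + 2HG and triangles for CLPP-KO, a grey line joining a gene's values, and no symbol where no peak was called. Foxo3, Foxc1, Foxp1 and Foxo1 sit at the right edge in all 3 lists, Foxa1 lies at 25.0 with 2HG and 55 in CLPP-KO, and the 4 genes of the CLPP-KO list alone lie between 4.96 and 19.3.

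Foxa1, a pioneer factor of endoderm-derived tissues (chr12:57587414-57593702, minus strand), had a peak of 1088 bp at percentile 25.0 in WT + 2HG and of 1187 bp at percentile 55 in CLPP-KO. The extent of the peak was thus similar in the lists, and its rank was higher in CLPP-KO. Its summits were at least 6167 bp from the start of any other gene. Foxn4, a factor of retinal and spinal interneurons (chr5:114392225-114411899, minus strand), had small peaks of 401 bp at percentile 10.1 and 741 bp at percentile 14.6, whose summits lay 507 and 169 bp upstream of its start. These were the only genes gained in both lists whose strongest peak was nearer to their own start than to any other in both lists.

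Foxd3, which keeps neural crest and pluripotent cells undifferentiated (chr4:99544536-99546859, plus strand), had a single WT + 2HG peak of 776 bp at percentile 22.9. CLPP-KO had 3 peaks there, at percentiles 18.0, 1.97 and 28.7. The first overlapped the WT + 2HG peak, and the last lay over the coding sequence printed above. The bases of the start window under a peak were 776 in WT + 2HG and 1631 in the CLPP-KO list. The divergent lncRNA Foxd3os shared these peaks, with 0, 1 and 3 in its own start window. Foxe1, a thyroid and palate factor (chr4:46343609-46346412, plus strand), likewise had more and narrower peaks in CLPP-KO, with a WT + 2HG peak of 982 bp at percentile 28.8 and 3 CLPP-KO peaks at percentiles 20.1, 10.5 and 5.09, the last beyond the end of the WT + 2HG peak. Window bases under a peak were 982 and 1570, whereas the strongest single peak ranked lower in CLPP-KO than in WT + 2HG.

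Foxd4, expressed in early neural ectoderm (chr19:24876600-24878561, minus strand), had a peak of 479 bp at percentile 11.7 in WT + 2HG and of 1130 bp at percentile 35.9 in CLPP-KO. Neither peak covered the annotated start. The summits lay in the coding exon, 1058 and 1146 bp downstream of the start and 143 and 55 bp from a start of the lncRNA Gm58994. Without strand in ChIP data, a peak shared by overlapping genes cannot be assigned to one of them.

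The 4 genes marked in CLPP-KO alone had weak peaks. Foxb1, a factor of the mammillary region of the hypothalamus (chr9:69664992-69668222, minus strand), had one of 863 bp at percentile 19.3, with its summit 1605 bp into the gene and 205 bp from a start of the lncRNA B230323A14Rik. Foxi3, a factor of ectodermal placodes (chr6:70933515-70939673, plus strand), had one of 382 bp at percentile 10.3, with its summit 43 bp upstream of the start. The gut mesenchyme factor Foxl1 (chr8:121854679-121857383, plus strand) had 2 peaks, at percentiles 4.19 and 4.96, and Foxl3 (chr5:138805835-138807374, plus strand) an intronic peak of 471 bp at percentile 12.2. The median of the strongest peaks was at percentile 11.3, next to 12.2 for all 546 coding genes marked in CLPP-KO alone. For the 6 genes in both lists the median was at percentile 24.0 in WT + 2HG and 32.3 in the CLPP-KO list, and for all 1033 such genes at 17.3 and 24.4. Foxa1 was gained in both lists under every one of 13 ways of counting, Foxd3 and Foxe1 under 12, Foxn4 under 9 and Foxd4 under 8. Foxb1 was gained in CLPP-KO under 11, and Foxi3, Foxl1 and Foxl3 under 9. The count in CLPP-KO alone ran from 1 to 4, and with equal list lengths by area it was 2, namely Foxb1 and Foxd4.

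Assignment to the nearest start of any gene changed which genes counted as gained in both lists. When a peak was credited only to the gene, noncoding genes included, whose start lay nearest to its summit, 23 of the 45 Fox genes had no WT peak, and 3 of these were gained in both lists (13.0%, against 9.37% of all coding genes counted that way), namely Foxa1, Foxa3 and Foxn4. Foxd3, Foxd4 and Foxb1 were then no longer counted as gained in CLPP-KO, since each of their peaks went to a neighbouring lncRNA or miRNA. Gained in CLPP-KO were 7 (30.4%, against 14.8%), and with equal list lengths by summit p they were 5 of 17 (29.4%, against 8.28%). When only protein-coding starts competed for a peak, the gains in both lists were 7 of 20 (35.0%, against 9.37%). The strongest peak was nearer to a start of another gene in 8 marked Fox genes in WT, 13 with 2HG and 11 in CLPP-KO.

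**Figure D2:**
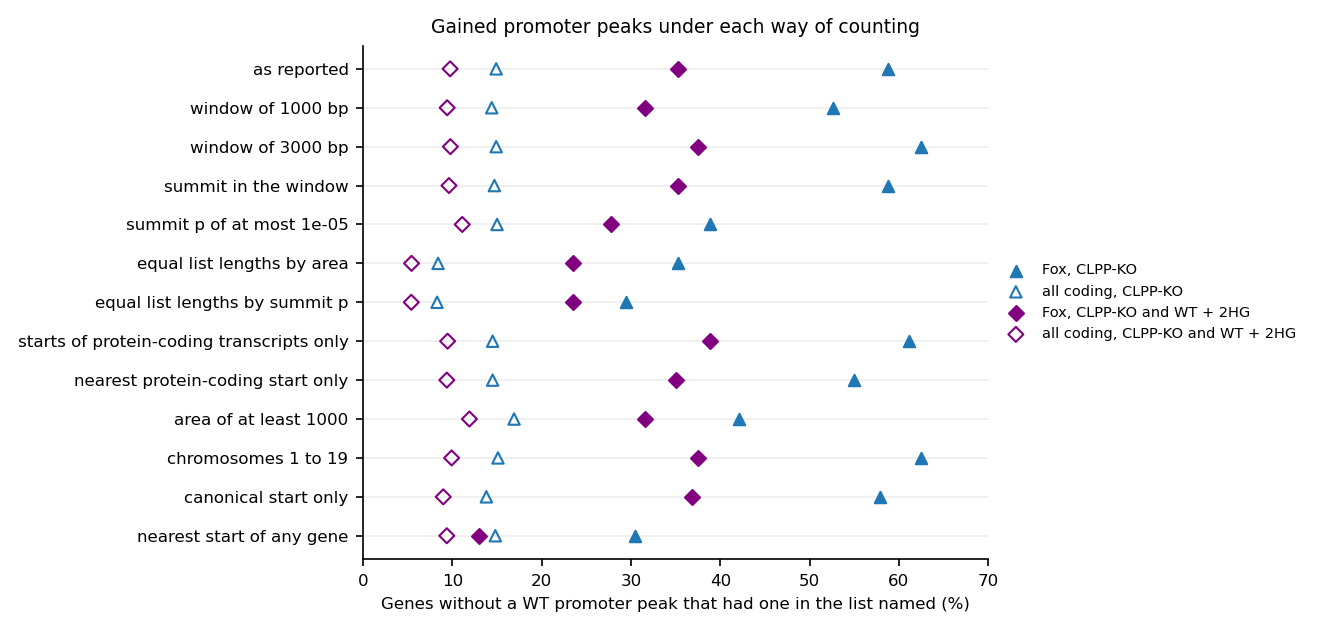
Share of the genes without a WT promoter peak that had one in CLPP-KO (triangles) or in both CLPP-KO and WT + 2HG (diamonds), in percent (x axis), for Fox genes (filled) and all protein-coding genes (open), with 1 row for each way of counting. Fox shares in both lists ran from 13.0% with the nearest start of any gene to 38.9% with the starts of protein-coding transcripts, against 5.39% to 11.9% for all coding genes.

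Among the 28 genes marked in all 3 lists, Foxo1 and Foxo3 carried wide peaks near the top of each list. Foxo1 (chr3:52175757-52260642, plus strand) carried a single peak of 2863 bp in WT, 2893 bp with 2HG and 2919 bp in CLPP-KO, at percentiles 99.6, 99.8 and 99.6, with the summit always in its untranslated region. Foxo3 (chr10:42057837-42154007, minus strand) carried one of 3468, 3361 and 3164 bp at percentiles 100.0, 99.9 and 100.0, and a second, weaker one upstream of 613, 1217 and 969 bp at percentiles 28.5, 53.7 and 54.6. The summit of the wide Foxo3 peak lay in an intron in WT and in a coding exon in the other lists. Foxo4 on X (chrX:100298073-100304479, plus strand) was weaker, with 721, 740 and 1045 bp at percentiles 28.9, 27.3 and 36.9. Foxo6, a largely neural member (chr4:120124276-120147792, minus strand), had no peak within 2000 bp of its only annotated start but had peaks in its body in every list. The strongest was 1493 bp at percentile 86.3 in WT, 1385 bp at percentile 78.0 in WT + 2HG and 1437 bp at percentile 68.6 in CLPP-KO, with its summit over an annotated untranslated region 3261, 3269 and 3090 bp downstream of the start. A second one in an intron was at percentile 13.4, 40.6 and 55.1, and WT + 2HG and CLPP-KO also had 2 peaks and 1 peak over coding sequence, at least 21746 bp from the start. With a window of 3000 bp Foxo6 counted as marked in all 3 lists.

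Of 36 genes listed for the insulin–FOXO pathway, 33 were marked in all 3 lists and 3 in none (G6pc1, Pck1 and Sod2). Only these 3 lacked a WT peak and could be gained, and 0 were. Of all coding genes without a WT peak 11.6% were gained in WT + 2HG and 14.9% in CLPP-KO, so 0 of 3 says little. Of all coding genes 50.6% were marked in all 3 lists. The median percentile of the 33 was 85.8 in WT, 85.3 with 2HG and 88.6 in CLPP-KO, next to 59.8, 64.8 and 66.9 for all coding genes marked throughout. Insr, the insulin receptor, lay at 83.3, 92.8 and 89.1, Irs2, its adaptor, at 98.5, 99.9 and 99.9, and Pdk4, a FOXO target that restrains glucose oxidation, at 33.3, 57.7 and 50.8. Other genes of the list ranked lower than in WT in both other lists, among them Akt2 (86.7, 80.7 and 76.4) and Sesn3 (85.8, 76.8 and 68.9). The genes in none encode the gluconeogenic enzymes G6pc1 and Pck1 and the mitochondrial dismutase Sod2.

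The mesodermal genes Foxc1, Foxc2 and Foxf1 also ranked high in every list. Foxc1 (chr13:31990616-31996459, plus strand) had a single WT peak of 3003 bp at percentile 99.9, which was 2 peaks in the other lists, the larger of 2368 bp in WT + 2HG and 2398 bp in the CLPP-KO list, both at percentile 99.8. A further Foxc1 peak at the other end of the gene, with its summit in the untranslated region, was at percentiles 94.9 in WT, 95.9 in WT + 2HG and 45.3 in the CLPP-KO list, a lower rank in CLPP-KO at a similar width of 1518, 1729 and 1510 bp. Foxc2 (chr8:121842910-121845634, plus strand) had 2282, 2373 and 2232 bp at percentiles 99.6, 99.3 and 95.5. Foxf1, a factor of visceral and lung mesenchyme (chr8:121811074-121814883, plus strand), had 3017, 3181 and 2921 bp at percentiles 92.0, 98.7 and 97.6.

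Foxf2, the paralogue of Foxf1 that acts in palate and vascular mural cells (chr13:31809663-31816393, plus strand), differed most between the lists among the genes marked throughout, by window bases under a peak. Its peak was 467 bp at percentile 18.4 in WT, 1851 bp at percentile 82.6 in WT + 2HG and 2124 bp at percentile 89.7 in CLPP-KO. The WT summit lay in the Foxf2 untranslated region, 56 bp from a start of the lncRNA 1700018A04Rik and 168 bp from that of Foxf2. The WT + 2HG and CLPP-KO summits lay in Foxf2 coding sequence. They were 325 and 256 bp from a start of the miRNA Gm54768 and 538 and 607 bp from that of Foxf2. When a peak was credited to the nearest start of any gene, Foxf2 was marked in no list. Foxl2, an ovarian and eyelid factor (chr9:98837341-98840596, plus strand), had 836, 2449 and 2517 bp at percentiles 36.8, 79.9 and 76.5, and its peaks were shared with the lncRNA Foxl2os. At Foxa2 (chr2:147884797-147889005, minus strand), an endoderm factor, the window bases under a peak were 320, 1012 and 947, with the WT peak at percentile 0.895. That WT peak did not count with the canonical start only, and Foxa2 was gained in both lists under 4 of 13 ways of counting. Over the 28 genes the ratio of window bases to WT had a median of 1.07 in WT + 2HG and 1.05 in the CLPP-KO list, next to 1.11 and 1.10 for the 11021 coding genes marked throughout. It was at least 1.5 in 6 of 28 (21.4%) and 5 of 28 (17.9%), against backgrounds of 13.7% and 14.2%. The median ratio was thus slightly below that of all such genes, and the shares with at least 1.5 times the covered bases slightly above. By the width of the strongest peak, 4 of 28 (14.3%, against 15.9%) and 5 of 28 (17.9%, against 16.0%) reached that ratio.

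**Figure D3:**
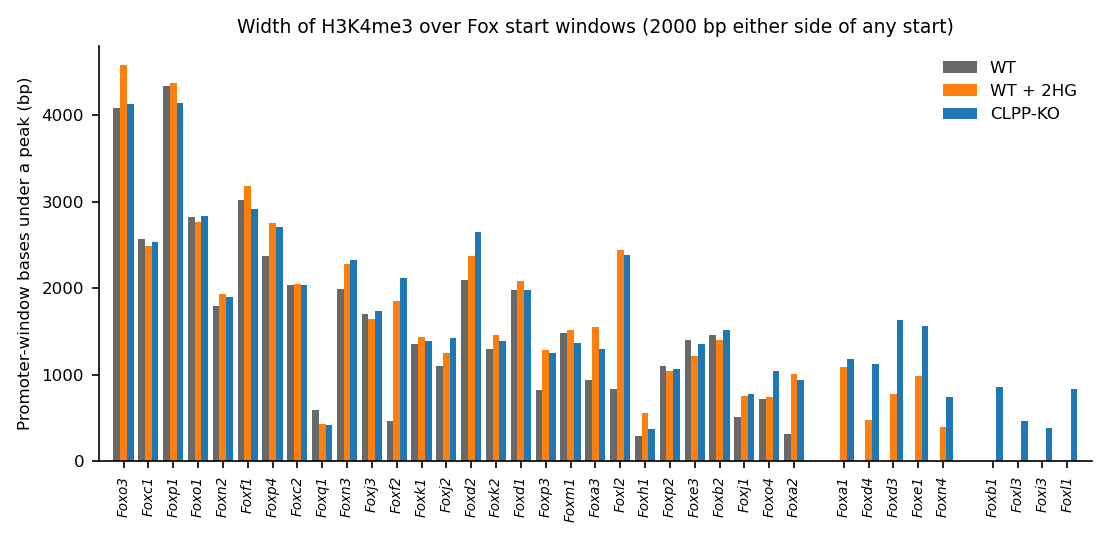
Bases of the promoter window under an H3K4me3 peak (y axis, bp, from 0) for the same 37 Fox genes, with bars for WT, WT + 2HG and CLPP-KO, and genes marked in all 3 lists, in both WT + 2HG and CLPP-KO, and in CLPP-KO alone from left to right. Most genes of the first block have bars of like height, whereas Foxf2 goes from 467 to 1851 and 2124 bp and Foxl2 from 836 to 2449 and 2381 bp.

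Foxp1, Foxn3 and Foxp4, with several groups of alternative starts, were marked at 1 or 2 of these groups in each list. Starts whose windows touched were joined in a group. Foxp1, which acts in B cells and heart among other tissues (chr6:98902299-99499685, minus strand), had peaks at 2 of 12 groups of starts in every list. The peak at the far upstream starts was 3070, 3046 and 2866 bp wide at percentiles 99.9, 99.6 and 99.7, and the one at its canonical start was at 86.7, 73.5 and 86.5. Foxn3, a repressor (chr12:99156337-99530218, minus strand), was marked at 2 of 8 groups in every list. Its stronger peak was at percentile 94.4, 93.5 and 92.5 and the upstream one at 33.9, 43.0 and 53.5. Foxp4 (chr17:48178058-48235699, minus strand), at 1 of 4 groups, had 2369, 2303 and 2025 bp at percentiles 98.4, 96.0 and 95.7, and Foxn2 (chr17:88747825-88797961, plus strand) 1792, 1930 and 1903 bp at percentiles 94.3, 98.6 and 98.4. Foxp1, Foxn3 and Foxp4 were each marked at the same groups of starts in all 3 lists.

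Foxk1 and Foxk2, whose products regulate glycolysis and autophagy, were marked at similar ranks. Foxk1 (chr5:142387240-142447766, plus strand) was at percentiles 79.6, 81.2 and 87.4. Foxk2 (chr11:121150786-121201060, plus strand) had a peak of 911, 909 and 965 bp at percentiles 81.8, 89.4 and 84.0, which lay 207, 21 and 28 bp from a start of the coding gene Cybc1. A weaker peak at percentiles 28.4, 28.9 and 30.6 had its summit 220, 275 and 203 bp upstream of the start of Foxk2 itself. Foxa3, a liver factor (chr7:18747209-18757471, minus strand), was counted in WT only through a peak at percentile 92.9 whose summit was 212 bp from the start of Sympk. Peaks over the start of Foxa3 itself were called in WT + 2HG, at percentile 13.5, and in CLPP-KO, at percentile 16.4. Foxj1, the regulator of motile cilia (chr11:116221530-116226225, minus strand), was at percentiles 34.8, 29.3 and 38.5.

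The other genes marked throughout were Foxb2, Foxd1, Foxd2, Foxe3, Foxh1, Foxj2, Foxj3, Foxm1, Foxp2, Foxp3 and Foxq1, with strongest peaks between percentiles 34.0 and 87.3 in WT. Foxh1, a partner of SMADs in Nodal signalling, was counted only through a peak within 132 bp of a start of Ppp1r16a. The peak of Foxq1 began 1401, 1563 and 1579 bp downstream of the annotated start, so that 600, 438 and 422 bp of it lay in the window. Foxp3, the regulatory T cell factor, was marked at 1 of 3 groups of starts, near Ppp1r3f and the lncRNA Flicr, while 0 of 4 leukocyte markers were marked in any list. The genes in no list were Foxi1, Foxi2, Foxn1, Foxo6, Foxr1, Foxr2 and Foxs1, of which Foxi1 serves the inner ear and kidney and Foxn1 the thymic epithelium.

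Where they were marked in all lists, Fox genes had wide and strong peaks. Their median width was 1438 bp in WT, 1583 bp with 2HG and 1588 bp in CLPP-KO, next to 906, 1054 and 1053 bp for all coding genes marked throughout. Peaks of at least 2000 bp stood at 9, 11 and 11 of the 28 (32.1, 39.3 and 39.3%), against 3.98, 6.71 and 6.76%. The median percentile was 78.9, 89.6 and 84.5, against 59.8, 64.8 and 66.9. The 11 Sox genes marked throughout had median widths of 1100, 1693 and 1651 bp and median percentiles of 47.7, 72.1 and 81.0. Peaks of at least 2000 bp stood at 9.09, 36.4 and 36.4% of them. In WT + 2HG and CLPP-KO such widths were thus shared with Sox genes. The Fox summits also lay further into the gene. They were over 500 bp downstream of the nearest own start in 7 of 28 marked Fox genes in WT (25.0%), 9 of 34 in WT + 2HG (26.5%) and 12 of 38 in CLPP-KO (31.6%), where all marked coding genes had 8.24, 7.04 and 7.34%. In coding exons of the gene itself lay the strongest summits of 10 of 28, 14 of 34 and 14 of 38 marked Fox genes. This was not counted for all coding genes, so it has no background here. Hox genes, the homeobox regulators of body axis, had summits over 500 bp downstream in 38.1, 43.8 and 47.2% of marked members, so this position was shared with them.

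**Figure D4:**
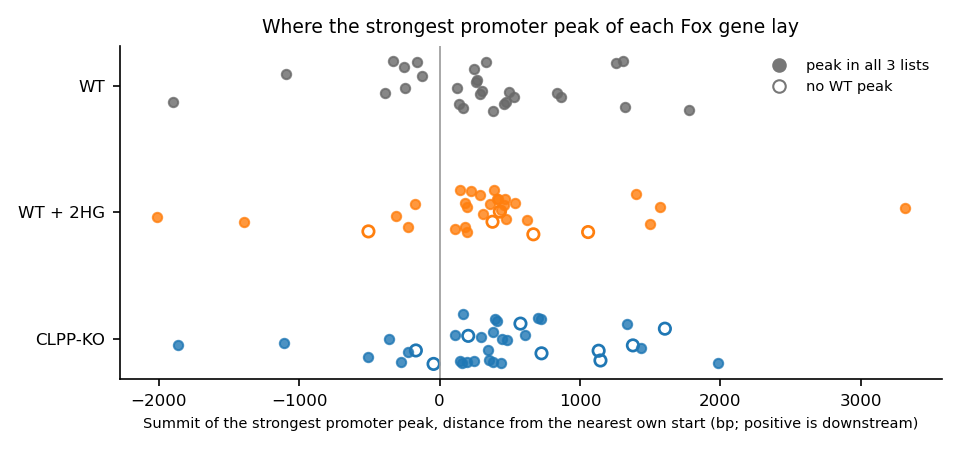
Distance of the summit of the strongest promoter peak from the nearest start of its gene for the same 37 Fox genes (x axis, bp, positive downstream), in 1 row per list with vertical scatter for display only, filled for genes marked in all 3 lists and open for genes without a WT peak. Most summits lie downstream of the start, and 12 in CLPP-KO lie over 500 bp downstream.

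Marked Fox genes were mostly CpG-rich at their starts. A start was called CpG-rich, a limit chosen after the data were seen, when the 500 bases either side of the canonical start had a GC content of at least 55% and an observed-to-expected CpG ratio of at least 0.6. This held for 31 of 45 Fox genes (68.9%) and 39.2% of all coding genes. Of the 31, 23 were marked in WT (74.2%), 28 with 2HG (90.3%) and 31 in CLPP-KO (100.0%), against 89.9, 95.0 and 96.3% of all CpG-rich coding genes. The Fox share was thus below the background in WT and near it in CLPP-KO. Of the other 14 Fox genes 7 were marked in CLPP-KO (50.0%), against 33.5% of all other coding genes. Of the 28 Fox genes marked throughout 82.1% were CpG-rich, against 69.6% of all coding genes marked throughout. None of the 7 Fox genes without a peak was CpG-rich. Of all 8838 coding genes in no list 3.24% were CpG-rich, so this absence is near the background. Of the 8 CpG-rich Fox genes without a WT peak, 5 were gained in both lists (62.5%) and 8 in CLPP-KO. Among all 861 CpG-rich coding genes without a WT peak, 49.4% were gained in both and 64.3% in CLPP-KO. Next to genes of like composition, the Fox shares thus lay nearer to the background than over all genes, and they rest on 8 genes. In the remaining class 1 of 9 Fox genes was gained in both (11.1%), against 6.24%.

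**Figure D5:**
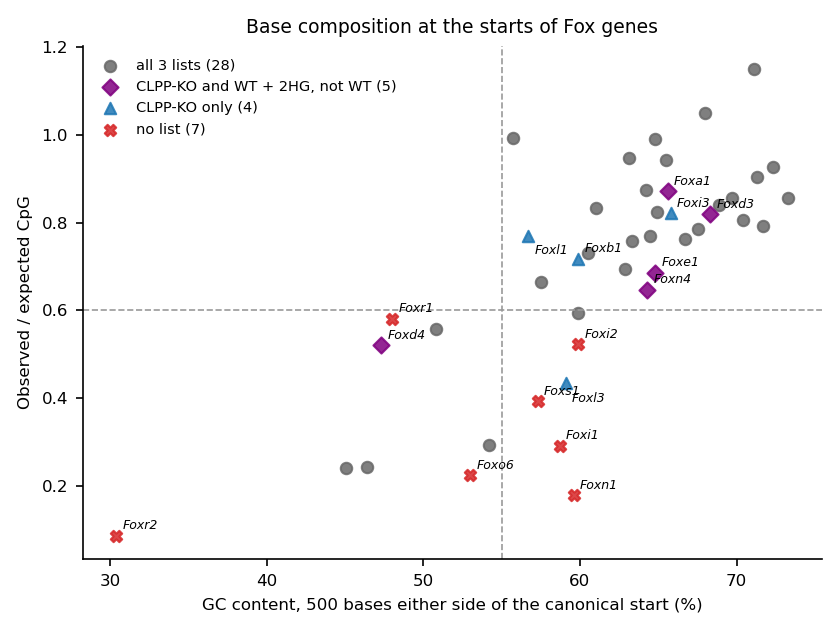
Observed-to-expected CpG ratio (y axis) against GC content in percent (x axis) of the 500 bases either side of the canonical start of 44 Fox genes, with symbols for the lists that mark the gene and dashed lines at the limits of 0.6 and 55%. The 30 genes in the upper right are all marked in CLPP-KO, and the 7 genes marked in no list lie outside that corner.

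Other families of developmental regulators also had a larger share of gains than all coding genes. Of 39 Hox genes, 21 were marked in WT, 32 with 2HG and 36 in CLPP-KO (53.8, 82.1 and 92.3%). Of all coding genes 51.3, 56.4 and 58.2% were marked. Among the 18 Hox genes without a WT peak, 11 were gained in both lists (61.1%), against 9.74% of all such coding genes. Of 19 Sox genes, which encode HMG-box factors, 11, 14 and 16 were marked, and 3 of 8 were gained in both (37.5%). The Sox share was close to the Fox share of 35.3%, and the Hox share was higher. Among all CpG-rich coding genes without a WT peak, 49.4% were gained in both lists. Hox and Sox genes were not split by CpG content here. Hox genes marked throughout differed from Fox genes in rank, with a median percentile of 35.2 in WT, 50.2 in WT + 2HG and 62.3 in the CLPP-KO list.

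Markers of the labelled cell type were marked in part. Of 8 adipocyte genes 3, 6 and 5 were marked, with Cebpa, Cebpb and Pparg in all lists and Adipoq and Fabp4 in none. Of 7 brown adipocyte genes 2, 3 and 4 were marked, with Prdm16 and Zic1 in all lists and Ucp1, Dio2 and Ppargc1a in none. Of the 10 genes in these groups without a WT peak, 3 (Lpl, Plin1 and Cidea) were gained in WT + 2HG and CLPP-KO, next to 9.74% of all such coding genes, while Lipe was gained in WT + 2HG alone and Ebf2 in CLPP-KO alone. The muscle gene Des was gained in both lists too. Of 4 endothelial genes 1 was marked in each list, of 4 skeletal muscle genes 0, 1 and 2, and of 4 neural genes 2, 2 and 3. The part of cell state or of other cell types in the Fox values was not tested.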

How the data were processed

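H3K4me3 ChIP–seq libraries of mBA cells were trimmed with fastp 0.23.4, mapped with BWA 0.7.17 to GRCm39 and called with Genrich 0.6.1 by the authors, on the 4 replicates of each condition together (stated q-value limit 0.05), and 1 narrowPeak list per condition was deposited. The names and versions come from the submitters' processing notes. In the deposited lists the signal is the area under the curve and the p field is a −log10 p-value at the summit, neither scaled between lists. The q field is unset, so the stricter limit used here was a summit p of 1e-05.

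Genes and starts came from GENCODE M39 on GRCm39, and 0 peaks ended beyond a chromosome. Peaks on names that the reference lacks (77 in WT, 6 in WT + 2HG, 217 in CLPP-KO) marked no Fox gene. A gene was marked when a peak overlapped the 2000 bp either side of any transcript start by at least 1 bp. Percentiles rank areas within a list. The members and gene lists were chosen with earlier results of these data known. Named with full values were the genes present in some lists only, 10 genes chosen for their roles, and the 3 largest and 3 smallest by CLPP-KO percentile among the rest marked throughout. Foxl2, Foxo4, Foxo6, Foxh1, Foxp3 and Foxq1 were given further values after these were seen. One gene of the set enters the counts and is not reported here by itself. RefSeq promoter sequences, of another build, were not used here. Genome windows were read from GRCm39. No test was possible with 1 list per condition. The code was tested on simulated data, where 400 of 400 planted genes were recovered, and its counts equalled those of bedtools 2.31.1 in 3 of 3 lists. Python 3.11.15, pandas 2.3.3, numpy 2.4.6 and matplotlib 3.10.9 were used.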

Additional observations from a re-analysis of the deposited data

How the results depend on the processing

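The 8 counts of Fox genes were taken under 12 other settings, 4 of them chosen after seeing the data, and 88 of 96 values stayed within 1.5 times the reported count. Of the 88, 12 are the count in WT + 2HG alone, which was 0 in every setting. A fall from 6 to 4 genes gained in both lists, with equal list lengths, also lies within that limit. Genes marked in CLPP-KO only, 4 as reported, were 2 with a summit p of at most 1e-05, 2 with equal list lengths by area, 1 with equal list lengths by summit p and 2 with an area of at least 1000. Genes gained in both lists fell from 6 to 3 when a peak was credited to the nearest start of any gene. Genes marked in WT and missing from one or both other lists, 0 as reported, were 2 (Foxh1 and Foxq1) with the summit required in the window, 1 (Foxp3) with the nearest protein-coding start only and 2 (Foxp3 and Foxq1) with the nearest start of any gene. Shorter lists hold fewer weak peaks by construction. In WT + 2HG the Foxh1 summit lay 2011 bp upstream of the nearest own start and the Foxq1 summit 3313 bp downstream. Both were outside the window, which the peaks still overlapped. That Foxq1 summit was 703 bp from a start of the lncRNA 1700018A04Rik. The WT + 2HG summit of Foxp3 was 193 bp from a start of Ppp1r3f and 411 bp from the nearest own start. For the other changes the cause was not tested. Genes marked ranged from 22 to 29 in WT, 23 to 35 in WT + 2HG and 29 to 39 in CLPP-KO.

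No paired analysis was possible because the peaks of the 4 replicates were called together, and leaving out a replicate was not run for the same reason. The lists hold no read counts, and the limits set by depth were not measured.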

Other observations

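In 2 of 3 groups of neighbouring Fox genes every member was marked in all 3 lists, whatever its peak width, and in 1 group not. The groups hold only 2 or 3 genes, and 62.2% of all Fox genes and 50.6% of all coding genes were marked in all 3 lists. The lists themselves grew, from 12342 peaks in WT to 14059 with 2HG and 15118 in CLPP-KO. On chromosome 8, Foxf1, Foxc2 and Foxl1 lie within 50310 bp that held 3 peaks in WT, 3 with 2HG and 6 in CLPP-KO, covering 6256, 6597 and 7244 bp. In each list these include a peak outside the Fox windows, nearest to the start of the coding gene Mthfsd. CLPP-KO had a further peak outside them, nearest to Foxl1. Foxf1 and Foxc2 were marked in every list there, and Foxl1 in CLPP-KO alone. On chromosome 13, Foxq1, Foxf2 and Foxc1 lie within 260343 bp that held 4, 6 and 7 peaks, covering 7333, 9434 and 10113 bp, and all were marked in every list. Of these peaks 1, 2 and 3 lay outside the Fox windows. On chromosome 4, Foxd2 and Foxe3 lie within 23732 bp with 2 peaks in each list, covering 3510, 3591 and 4008 bp, and both were marked in every list.

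The forkhead core TGTTTAC or its reverse complement GTAAACA occurred within 500 bases of the canonical start in 5 of 45 Fox genes (11.1%), namely Foxa1, Foxo1, Foxo4, Foxp2 and Foxr2, and in 9.38% of all coding genes. These include genes of 3 kinds, marked throughout, gained in both lists and marked in none. A match to these letters is a description of the sequence only.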
